A study of Rattus norvegicus with 6 samples.

Results

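The collagen gene family was taken as every row of the deposited count tables whose gene name is Col, a number, a and a number, and 40 of the 18077 rows met this rule. No collagen name was repeated. The 40 genes encode chains of 24 collagen types and were placed in 4 classes by type: 11 fibrillar, 6 basement membrane, 8 FACIT (fibril-associated collagens with interrupted triple helices) and 15 of other types.

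RNA was sequenced after polyA selection from cultures labelled as cardiomyocytes, the contracting muscle cells of the heart, isolated from rat pups of 1 to 3 days. There were 2 groups with 3 libraries each. Ad-GFP cultures received an adenovirus with green fluorescent protein and served as controls (their treatment label is WT), and Ad-RNF128 cultures received an adenovirus labelled for overexpression of the ubiquitin ligase RNF128. Both groups were exposed for 24 h to 500 µM of palmitic acid, a saturated fat, and harvested after 48 h, so the series compares the vectors under palmitate only. Per the labels' protocols, pre-plating and BrdU, a base analogue that blocks dividing cells, were used to keep fibroblasts down, and the protocol writes the overexpressed gene once as RNF28 and once as RNF128. No separate animals, platings or batches are named, so p-values measure only how far these samples spread, and that spread may be technical.

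Collagens are triple helices of 3 chains, each chain a long run of short repeats that begin with glycine. Fibrillar types I, III, V and XI form the cross-banded fibrils that carry tension in the heart, with type V and type XI chains setting fibril diameter. Type IV forms the sheet-like network of basement membranes around cardiomyocytes and vessels, and FACIT chains sit on the surface of fibrils. In the heart, type I and type III are made mainly by fibroblasts, and their build-up is the hallmark of fibrosis. Chains are hydroxylated and folded in the endoplasmic reticulum, trimmed outside the cell by propeptide proteinases, and cross-linked by lysyl oxidases.

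Library totals ran from 16352843 to 21708973 counts. Ad-GFP replicate 1 stood apart from the other 5 libraries: its rank correlation over all genes was 0.776 to 0.818 with each of them, 14.7% of its counts fell on ribosomal protein genes against 3.55% to 5.48%, and 3551 rows had no read against 1190 to 2288. Collagen levels are therefore given for Ad-GFP replicates 2 and 3 and for Ad-GFP replicate 1 apart, and log2 changes are against replicates 2 and 3 unless all 6 libraries are named. Rnf128 had 0, 2 and 1 counts in Ad-GFP and 1, 3 and 1 counts in Ad-RNF128, which does not bear out the label, so directions below are those of the libraries labelled Ad-RNF128. Another RING finger gene, Rnf157, ran from 22.3 to 40.4 CPM (counts per 1000000 of the library total) in Ad-GFP libraries and from 1923 to 2553 CPM in Ad-RNF128 libraries.

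The labelled cell type was checked against marker genes. The summed CPM of 15 cardiomyocyte markers was 243 in Ad-GFP replicate 1, 694 and 685 in Ad-GFP replicates 2 and 3, and 241, 205 and 128 in Ad-RNF128. The troponin genes Tnnt2 (342 and 350 CPM in Ad-GFP replicates 2 and 3) and Tnnc1 (265 in both) made up most of the higher sums. Of 13 tested without Ad-GFP replicate 1, 3 fell (Tnnt2, Tnnc1 and Ttn) and 10 did not pass. In that comparison 28.0% of all genes tested fell and 28.9% rose. The calls of every marker list here are to be read beside those shares, and 3 of 13 is not above them. All 15 were present in at least 1 library, but the myosin heavy chain gene Myh6, which newborn cardiomyocytes express at a high level, reached at most 16.02 CPM. Ad-RNF128 replicate 3 nearly lacked several of these markers. It had 0.104 CPM of Myh6 and 0.0519 CPM of Myh7, against 10.8 to 16.02 and 10.2 to 13.6 CPM elsewhere. Actc1 was at 0.260 CPM there, against 9.84 to 17.5 CPM elsewhere. Tnnc1 (88.6 CPM) and Ttn (4.10 CPM) remained in that library. The part of that library in the 10 that did not pass was not tested. Fibroblast markers other than collagens summed to 949, 1028 and 1019 CPM in the Ad-GFP libraries and to 1004, 938 and 949 CPM in the Ad-RNF128 libraries, ranges that overlap. That sum was carried mostly by Gsn and Thy1, which did not pass, and outside Ad-GFP replicate 1 also by Postn, which fell. Postn measured 348 and 273 CPM in Ad-GFP replicates 2 and 3 and 188, 163 and 137 CPM in Ad-RNF128. Of 9 tested without Ad-GFP replicate 1, 4 fell and 0 rose, with a median log2 change of −0.65: Postn by 1.08, Mfap5 by 1.03, Fbln2 by 1.78 and Lum by 1.16. None of the 12 was at 0 in all libraries, and Dcn and Pdgfra, which mark cardiac fibroblasts, stayed at or below 1.22 and 2.86 CPM. Smooth muscle and pericyte markers summed to 4802 CPM in Ad-GFP replicate 1, 5762 and 6357 CPM in Ad-GFP replicates 2 and 3, and 5348 to 5942 CPM in Ad-RNF128. Of 7 tested without Ad-GFP replicate 1, 4 fell and 2 rose. Epicardial and mesothelial markers summed to 59.9 CPM in Ad-GFP replicate 1, 114 and 122 CPM in Ad-GFP replicates 2 and 3, and 86.6 to 97.2 CPM in Ad-RNF128. Of 3 tested without Ad-GFP replicate 1, 2 fell and 0 rose. Skeletal myogenic markers summed to 90.7 and 92.7 CPM in Ad-GFP replicates 2 and 3 and to 39.7 to 43.7 CPM in Ad-RNF128. Ad-GFP replicate 1 had 76.6 CPM of them. Of 5 tested without that library, 4 fell (Myod1, Myog, Myh3 and Myh8) and 1 rose (Mymk), with a median log2 change of −1.51. Myod1 ran from 25.3 to 63.3 CPM, above Myh6 in every library. Endothelial markers, whose cells make type IV collagen, summed to 83.4 and 86.3 CPM in Ad-GFP replicates 2 and 3 and to 43.7 to 48.2 CPM in Ad-RNF128, with 9.91 CPM in Ad-GFP replicate 1. Nearly all of the higher sums was Flt1, which fell (78.3 and 81.5 CPM against 36.7 to 40.1 CPM), while the other tested endothelial markers, Vwf and Cdh5, rose by 0.51 and 1.53 on the log2 scale. The part of these marker levels in the collagen differences was not tested, and in bulk RNA fewer cells of a type and less RNA per cell cannot be told apart.

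Collagen reads took a smaller share of the Ad-RNF128 libraries than of Ad-GFP replicates 2 and 3, and most of that gap was type I. The 40 genes together held 4.31% and 4.49% of the reads in Ad-GFP replicates 2 and 3, and 1.39%, 1.32% and 1.37% in Ad-RNF128. Ad-GFP replicate 1 held 0.447%, below all 5 other libraries. The share was 3.23 times as high in Ad-GFP replicates 2 and 3 as in Ad-RNF128, and these groups did not overlap.

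The summed shares of all 4 classes were higher in Ad-GFP replicates 2 and 3, but for FACIT genes and other types the direction rested on 1 gene. Fibrillar genes held 4.05% and 4.22% in Ad-GFP replicates 2 and 3, 1.19% ± 0.0430 (SD, n = 3) in Ad-RNF128 and 0.316% in Ad-GFP replicate 1, a ratio of 3.47 between the first pair and Ad-RNF128. Type IV genes held 0.195% and 0.203%, 0.129% ± 0.00399 (SD, n = 3) and 0.115% in the same order, a ratio of 1.55. FACIT genes held 0.0451% and 0.0446%, 0.0267% ± 0.000843 (SD, n = 3) and 0.00859%, a ratio of 1.68. Genes of other types held 0.0172% and 0.0188%, 0.0133% ± 0.000582 (SD, n = 3) and 0.00819%, a ratio of 1.35. In these 4 sums Ad-GFP replicate 1 lay below every other library. Without the gene of each class whose share differed most, an alternative chosen after seeing the data, the ratio was 2.91 for fibrillar genes (without Col1a1) and 1.64 for type IV (without Col4a1). It turned to 0.745 for FACIT genes (without Col12a1) and to 0.749 for other types (without Col8a2). These shares count reads without correction for transcript length, which the files do not give, so they compare libraries and not genes.

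The make-up of the collagen reads differed as well. Fibrillar genes gave 94.0% and 94.1% of collagen reads in Ad-GFP replicates 2 and 3, against 88.3%, 86.9% and 87.5% in Ad-RNF128. Type IV gave 4.53% and 4.53% in Ad-GFP replicates 2 and 3 and 8.92%, 10.01% and 9.51% in Ad-RNF128. Ad-GFP replicate 1 lay beyond the Ad-RNF128 libraries on this measure, with 70.6% fibrillar and 25.7% type IV.

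**Figure D1:**
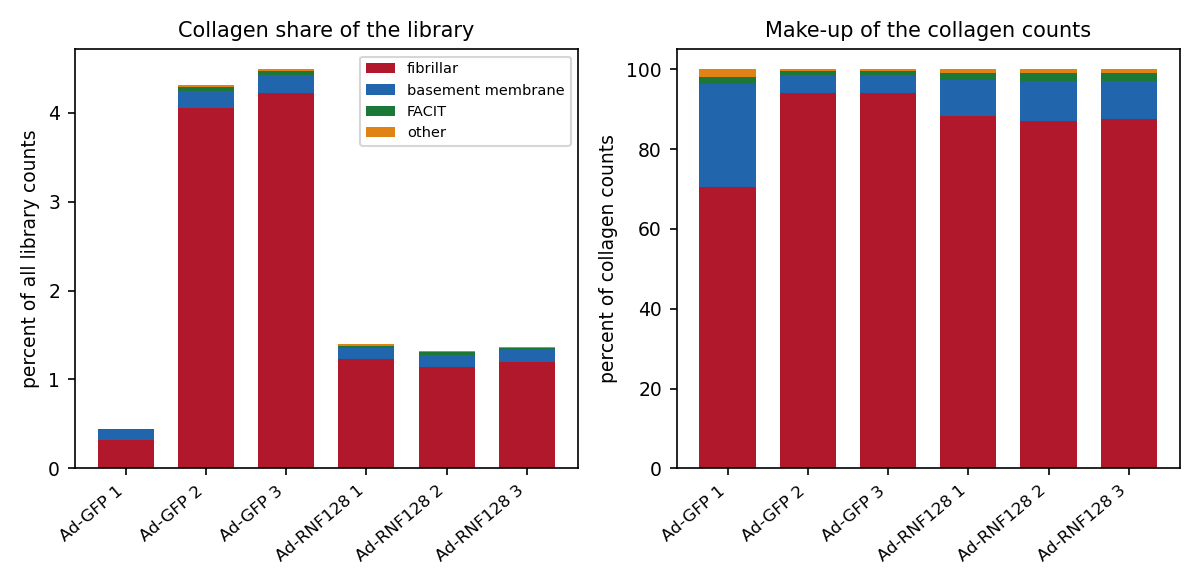
Stacked bars for each of the 6 libraries: left, percent of all library counts held by each collagen class; right, percent of the collagen counts in each class. On the left Ad-GFP replicates 2 and 3 reach 4.31% and 4.49%, the Ad-RNF128 libraries 1.32% to 1.39% and Ad-GFP replicate 1 0.447%; on the right type IV takes 25.7% of Ad-GFP replicate 1.

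Gene by gene, 26 of the 40 collagens had enough reads to be tested without Ad-GFP replicate 1 (edgeR quasi-likelihood test, Benjamini-Hochberg adjusted p under 0.05 over all 13173 genes tested). Of these, 15 fell and 4 rose in Ad-RNF128, and 7 did not pass. Over all genes tested, 28.0% fell and 28.9% rose (56.9% in either direction), so calls in either direction were common in this comparison. Among the collagens 8 fell at least 2-fold, against 3.79% of all genes, and 2 rose at least 2-fold, against 8.37%. The median log2 change was −0.69 over the tested collagens and 0.01 over all genes. In 14 tested collagens every Ad-RNF128 library lay below both Ad-GFP libraries, and in 5 every one lay above; these patterns held for 23.6% and 48.7% of all genes. The other 14 collagens had at most 14 counts in any library and are given by class below.

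**Figure D2:**
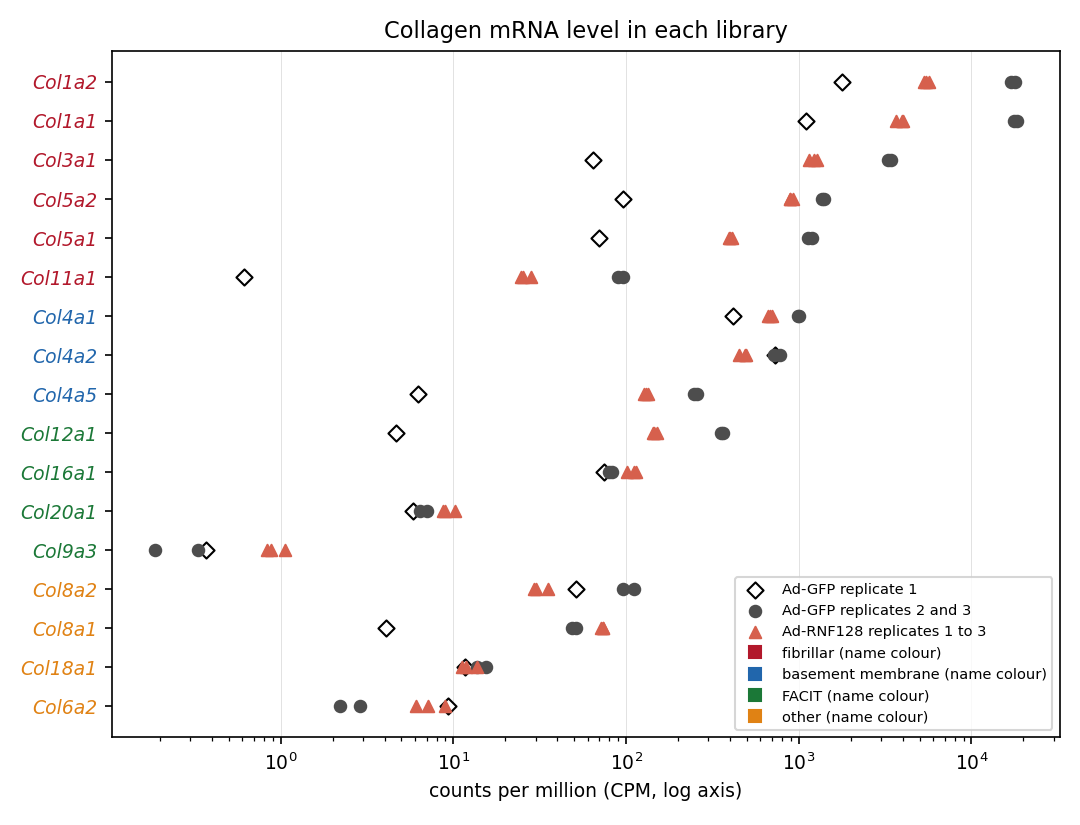
CPM (log axis) in each library of the collagen genes described in full below, with names coloured by class, Ad-GFP replicate 1 as open diamonds, Ad-GFP replicates 2 and 3 as circles and Ad-RNF128 as triangles. For the type I genes the Ad-GFP replicates 2 and 3 lie at 16876 CPM or above and the Ad-RNF128 libraries at 5659.9 CPM or below, with Ad-GFP replicate 1 lowest.

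Most fibrillar genes fell: of the 10 tested 8 fell and 0 rose, beside 28.0% and 28.9% of all genes. Of the 8, 5 fell at least 2-fold (3.79% of all genes did), and the class median log2 change was −1.19. Col1a1 (ENSRNOG00000003897) encodes the chain present in 2 copies in most type I molecules. It measured 17689.8 and 18266 CPM in Ad-GFP replicates 2 and 3, 4016, 3659 and 3970.1 CPM in Ad-RNF128, and 1099.7 CPM in Ad-GFP replicate 1. The Ad-RNF128 libraries lay well below the first pair and well above the remaining control. The log2 change against Ad-GFP replicates 2 and 3 was −2.37 ± 0.07 (SE; edgeR adjusted p = 9.7e-13), the largest fall among the collagens tested.

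Its partner Col1a2 (ENSRNOG00000011292), the second type I chain, measured 16876 and 17838 CPM in Ad-GFP replicates 2 and 3, 5659.9, 5285 and 5445 CPM in Ad-RNF128 and 1789 CPM in Ad-GFP replicate 1. The order of the libraries was that of Col1a1, without overlap between the pair and Ad-RNF128. Its log2 change was −1.82 ± 0.07 (edgeR adjusted p = 1.05e-11). Col3a1, the sole chain of type III, which mixes with type I in fibrils, measured 3275 and 3416 CPM against 1278, 1143 and 1217 CPM, with 64.6 CPM in Ad-GFP replicate 1. It fell by 1.62 ± 0.07 on the log2 scale (edgeR adjusted p = 4.68e-11).

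The minor fibril chains fell too, by unequal amounts. Col5a1, a type V chain that nucleates type I fibrils, measured 1129.5 and 1196 CPM in Ad-GFP replicates 2 and 3 and 401, 393 and 409.5 CPM in Ad-RNF128, a log2 change of −1.69 ± 0.06 (edgeR adjusted p = 1.73e-11). Col5a2, the other chain of the common type V trimer, measured 1393 and 1371 CPM against 893, 920.3 and 895 CPM, a log2 change of −0.77 ± 0.06 (edgeR adjusted p = 5.6e-08). Ad-GFP replicate 1 had 69.5 CPM of Col5a1 and 95.8 CPM of Col5a2, below every other library for both. Col11a1, a type XI chain known from cartilage and also from activated fibroblasts, measured 95.4 and 90.2 CPM against 28.1, 25.3 and 24.7 CPM, with 0.612 CPM in Ad-GFP replicate 1. Its log2 change was −1.99 ± 0.07 (edgeR adjusted p = 1.09e-11).

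The remaining fibrillar genes were low. Col27a1 (1.83 CPM in Ad-GFP replicate 1, against 7.09 to 12.5 CPM elsewhere) fell by 0.68 ± 0.14 and Col5a3 by 0.36 ± 0.10 on the log2 scale, and for Col5a3 Ad-GFP replicate 1 was the highest of all 6 libraries at 33.4 CPM, against 17.5 to 22.3 CPM elsewhere. Col5a3 did not pass with library totals in place of TMM scaling or without Ad-GFP replicate 3. Col11a2 (log2 change −0.50 ± 0.40) and Col24a1 (−0.03 ± 0.47) did not pass, and Col2a1, the main cartilage chain, had at most 7 counts in a library and was not tested.

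**Figure D3:**
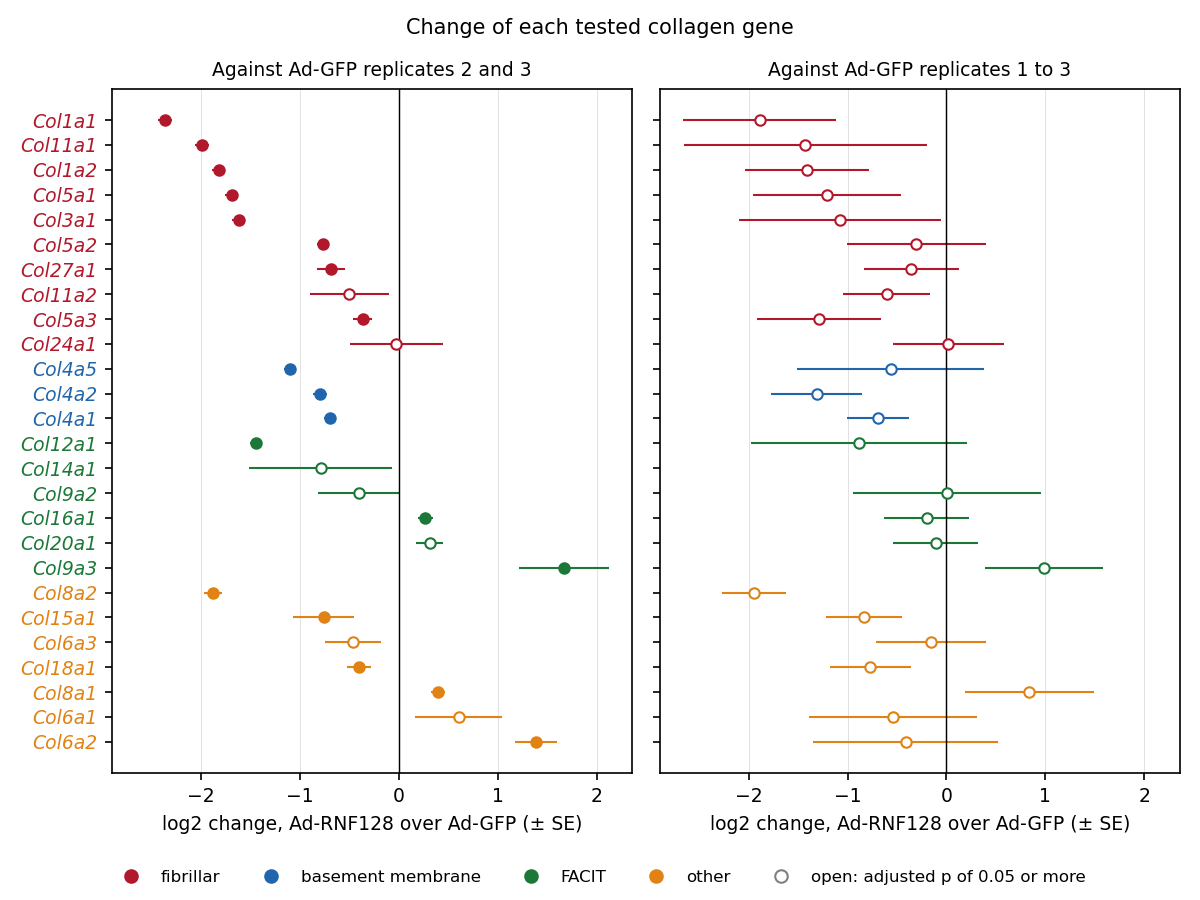
Log2 change (Ad-RNF128 over Ad-GFP, ± SE) of each tested collagen gene against Ad-GFP replicates 2 and 3 (left, 26 genes) and against all 3 Ad-GFP libraries (right, 25 genes). On the left 15 genes were called lower and 4 higher; on the right the errors are wider and 0 genes were called.

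The start regions of some of these genes are shown because the data bear on pairs of chains that moved together or apart. RefSeq promoter windows (build GRCr8, 250 bases before to 50 after the start) matched 32 of the 40 genes by symbol; Col1a1, Col2a1, Col3a1, Col6a2, Col9a3, Col12a1, Col14a1 and Col22a1 were not matched. Col1a2 (chr4:33518307-33518606, plus strand) is the type I chain with a window. Col4a1 (chr16:84885347-84885646, plus strand) starts 77 bases from Col4a2, which is read the opposite way, so that 176 bases of their windows are the same sequence. Col8a1 (chr11:56246532-56246831, plus strand) and Col8a2 (chr5:143870519-143870818, plus strand) are chains of 1 type that changed in opposite directions. Capitals mark CCAAT (a site read by NF-Y), GGGCGG (the GC box read by Sp1) and TATAAA (the TATA box) on either strand, so that ATTGG and CCGCCC are the first 2 read from the other strand.
Col1a2: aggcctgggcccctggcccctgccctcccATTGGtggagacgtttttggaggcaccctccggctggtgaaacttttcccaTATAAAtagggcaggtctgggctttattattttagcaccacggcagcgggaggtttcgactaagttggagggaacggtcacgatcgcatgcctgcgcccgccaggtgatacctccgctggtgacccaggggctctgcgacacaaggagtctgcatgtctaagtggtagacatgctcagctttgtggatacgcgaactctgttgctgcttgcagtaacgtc
Col4a1: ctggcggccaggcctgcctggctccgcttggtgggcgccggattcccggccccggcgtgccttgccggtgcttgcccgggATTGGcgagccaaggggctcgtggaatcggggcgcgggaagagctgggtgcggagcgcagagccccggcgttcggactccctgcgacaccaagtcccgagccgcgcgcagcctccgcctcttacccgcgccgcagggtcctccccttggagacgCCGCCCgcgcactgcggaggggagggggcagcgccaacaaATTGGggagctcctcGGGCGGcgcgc
Col8a1: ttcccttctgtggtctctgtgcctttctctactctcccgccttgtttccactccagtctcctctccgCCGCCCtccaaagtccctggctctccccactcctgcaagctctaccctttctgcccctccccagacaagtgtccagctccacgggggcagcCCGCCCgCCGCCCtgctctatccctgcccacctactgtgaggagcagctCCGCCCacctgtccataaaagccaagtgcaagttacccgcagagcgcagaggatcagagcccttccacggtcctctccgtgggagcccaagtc
Col8a2: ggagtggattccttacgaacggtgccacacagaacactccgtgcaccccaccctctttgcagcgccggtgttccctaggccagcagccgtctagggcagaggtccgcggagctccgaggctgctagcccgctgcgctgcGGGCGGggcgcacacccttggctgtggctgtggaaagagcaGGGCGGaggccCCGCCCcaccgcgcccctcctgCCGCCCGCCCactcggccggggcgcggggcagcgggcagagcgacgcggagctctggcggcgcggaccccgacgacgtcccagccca

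Col1a2 held 1 CCAAT and 1 TATAAA but no GGGCGG within its window. These matches began 221 and 170 bases before the listed start. Col4a1 held 2 CCAAT and 2 GGGCGG, and Col8a1 and Col8a2 held GGGCGG alone, at 4 and 5 places. Over the 32 windows, GGGCGG was found in 18 (56.2%), against 34.9% of all 27457 promoters in the table. CCAAT was found in 10 (31.2%), against 37.7% of all, and TATAAA in 4 (12.5%), against 14.3%. By class, GGGCGG was in 6 of 8 fibrillar, 5 of 6 type IV, 2 of 4 FACIT and 5 of 14 other windows. These are matches of letters and not measured sites.

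All 3 type IV genes tested fell (28.0% of all genes did), by less than the type I genes, and the class median log2 change was −0.80. Col4a1 (ENSRNOG00000016281) and Col4a2 (ENSRNOG00000023972) encode the chains of the ubiquitous type IV trimer and share the start region printed above. Col4a1 measured 986 and 1000.0 CPM in Ad-GFP replicates 2 and 3, 664, 698 and 679.7 CPM in Ad-RNF128, and 416 CPM in Ad-GFP replicate 1. Col4a2 measured 716 and 775 CPM, then 451, 486 and 493 CPM, and 725 CPM in Ad-GFP replicate 1. For Col4a2 alone among the tested collagens Ad-GFP replicate 1 lay within the range of the other Ad-GFP libraries, so that all 3 Ad-GFP libraries were above all 3 Ad-RNF128 libraries. The log2 changes without Ad-GFP replicate 1 were −0.70 ± 0.06 for Col4a1 (edgeR adjusted p = 2.18e-07) and −0.80 ± 0.07 for Col4a2 (edgeR adjusted p = 2.02e-07).

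Col4a5, a chain of the trimers of kidney glomerulus and smooth muscle basement membranes, measured 247 and 257 CPM in Ad-GFP replicates 2 and 3 and 128, 135 and 130 CPM in Ad-RNF128. Ad-GFP replicate 1 had 6.24 CPM, far below both. Its log2 change was −1.10 ± 0.06 (edgeR adjusted p = 2.3e-09). Its head-to-head neighbour Col4a6, with a start 1415 bases away, had at most 3 counts in a library. Col4a3 and Col4a4, another head-to-head pair, had at most 6 counts.

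FACIT genes did not move in 1 direction: of 6 tested, 1 fell and 2 rose. Of all genes 28.0% fell and 28.9% rose, so these few calls do not set the class apart. The class median log2 change was −0.07, which turned to 0.08 with library totals in place of TMM scaling. Col12a1, a long chain that bridges type I fibrils, fell. It measured 363 and 355 CPM in Ad-GFP replicates 2 and 3, 144, 152 and 146 CPM in Ad-RNF128 and 4.65 CPM in Ad-GFP replicate 1, and its log2 change was −1.44 ± 0.06 (edgeR adjusted p = 5.53e-11). Col16a1, which occurs in microfibrils and near basement membranes, rose slightly. It measured 79.4 and 82.9 CPM against 101, 111 and 113 CPM, and Ad-GFP replicate 1, at 74.5 CPM, lay close to the other controls. Its log2 change was 0.27 ± 0.07 (edgeR adjusted p = 0.00644), and it did not pass without Ad-GFP replicate 2.

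Col20a1 and Col9a3 were low genes for which every Ad-RNF128 library lay above every Ad-GFP library. Col20a1 measured 5.87, 6.37 and 7.03 CPM in the Ad-GFP libraries and 10.2, 8.98 and 8.73 CPM in Ad-RNF128, and its log2 change of 0.31 ± 0.14 did not pass (edgeR adjusted p = 0.0656). Col9a3, a chain of the cartilage collagen type IX, measured 0.367, 0.332 and 0.188 CPM in the Ad-GFP libraries and 1.05, 0.875 and 0.831 CPM in Ad-RNF128. It rose by 1.67 ± 0.45 on the log2 scale from these few reads (edgeR adjusted p = 0.00567), and did not pass in DESeq2 or without Ad-GFP replicate 3. Col9a2 (log2 change −0.41 ± 0.41) and Col14a1 (−0.79 ± 0.72) did not pass, and Col19a1 and Col22a1 were not tested, with at most 7 counts in a library.

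Of the 7 genes of other types that were tested, 3 fell and 2 rose, beside 28.0% and 28.9% of all genes. The type VIII chains changed in opposite directions. The median log2 change of these 7 was −0.40. In DESeq2, which was run on every gene with a read, the class median was 0.39, but it took in further genes of very few reads. Type VIII is a short-chain collagen of vessel walls and of the corneal endothelium, which forms hexagonal nets. Col8a2 (ENSRNOG00000010841) measured 96.5 and 111 CPM in Ad-GFP replicates 2 and 3, 35.2, 29.5 and 29.9 CPM in Ad-RNF128 and 50.9 CPM in Ad-GFP replicate 1, so that every Ad-GFP library was above every Ad-RNF128 library. It fell by 1.88 ± 0.09 on the log2 scale (edgeR adjusted p = 2.36e-10). Col8a1 (ENSRNOG00000039668) measured 51.0 and 48.9 CPM in Ad-GFP replicates 2 and 3, 71.4, 73.8 and 73.9 CPM in Ad-RNF128 and 4.10 CPM in Ad-GFP replicate 1, and every Ad-RNF128 library was above every Ad-GFP library. It rose by 0.40 ± 0.07 on the log2 scale (edgeR adjusted p = 0.000154).

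Col6a2, a chain of the beaded microfibrils of type VI, measured 2.88 and 2.20 CPM in Ad-GFP replicates 2 and 3 and 7.13, 6.08 and 8.88 CPM in Ad-RNF128. Ad-GFP replicate 1 was the highest of all at 9.30 CPM, on the far side of Ad-RNF128 from the other controls. Without it, Col6a2 rose by 1.39 ± 0.21 on the log2 scale (edgeR adjusted p = 5.14e-05). The partner chains Col6a1 (log2 change 0.60 ± 0.44) and Col6a3 (−0.46 ± 0.28) did not pass. Type VI was low in these cultures: its 3 classic chains, abundant in cardiac fibroblasts, stayed at or below 9.30 CPM.

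The multiplexins, which occur at basement membranes and release anti-angiogenic fragments, are counted here with the other types. Both were called lower. Col18a1 measured 13.6 and 15.4 CPM in Ad-GFP replicates 2 and 3, 11.2, 11.8 and 13.8 CPM in Ad-RNF128, which overlap, and 11.7 CPM in Ad-GFP replicate 1. It fell by 0.40 ± 0.12 on the log2 scale (edgeR adjusted p = 0.0117). Col15a1, at 1.50 and 2.02 CPM against 1.29, 0.829 and 1.40 CPM, with 0.917 CPM in Ad-GFP replicate 1, fell by 0.76 ± 0.30 (edgeR adjusted p = 0.0441). Neither call held under every alternative: Col18a1 passed in 10 and Col15a1 in 8 of 13. The 8 genes of other types that were not tested, among them Col7a1, which anchors epidermis to dermis, and Col10a1 of hypertrophic cartilage, had at most 14 counts in a library.

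Collagen chains were compared as ratios of counts within a library, which TMM scaling cannot move. Each pair given here holds chains of 1 type, except Col1a1 to Col3a1, which belong to type I and type III. They are not corrected for length, so only the differences between libraries can be read. The ratio of Col1a1 to Col1a2 was 1.05 and 1.02 in Ad-GFP replicates 2 and 3 and 0.710, 0.692 and 0.729 in Ad-RNF128. Ad-GFP replicate 1 had 0.615, on the side of Ad-RNF128, and an exact two-sided permutation test over all 6 libraries gave p = 0.4. With 3 libraries against 3 the smallest p that this test can give is 0.1.

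The type V ratio separated the groups with every library on its own side. Col5a1 to Col5a2 was 0.726 in Ad-GFP replicate 1, 0.811 and 0.873 in Ad-GFP replicates 2 and 3, and 0.449, 0.427 and 0.457 in Ad-RNF128 (exact permutation p = 0.1). Col1a1 to Col3a1 was 17.03, 5.401 and 5.35 in Ad-GFP and 3.14, 3.20 and 3.26 in Ad-RNF128 (exact permutation p = 0.1), also without overlap. Col4a1 to Col4a2 was 0.574 in Ad-GFP replicate 1, 1.377 and 1.29 in Ad-GFP replicates 2 and 3, and 1.473, 1.435 and 1.378 in Ad-RNF128 (exact permutation p = 0.1). Here too the groups did not overlap, but outside Ad-GFP replicate 1 the gap between the nearest libraries was small.

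The type VI ratios rested on few reads. Col6a3 to Col6a1 was 5.73 and 6.05 in Ad-GFP replicates 2 and 3 and 2.65, 3.67 and 2.63 in Ad-RNF128, with 0.5 in Ad-GFP replicate 1 (exact permutation p = 1). Col6a1 to Col6a2 had an exact permutation p of 0.3. The ratio of Col8a1 to Col8a2 was chosen after their values were seen and is given without a test. It was 0.0804 in Ad-GFP replicate 1, 0.528 and 0.440 in Ad-GFP replicates 2 and 3, and 2.03, 2.50 and 2.47 in Ad-RNF128.

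**Figure D4:**
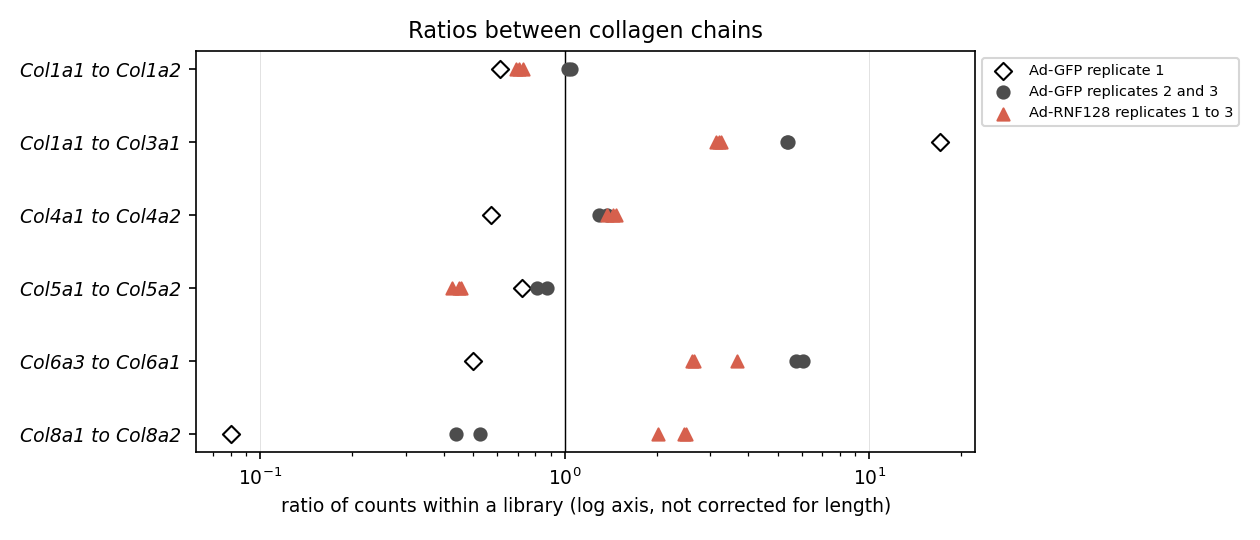
Ratio of counts between chains within each library (log axis, not corrected for length), with Ad-GFP replicate 1 as open diamonds, Ad-GFP replicates 2 and 3 as circles and Ad-RNF128 as triangles. For Col5a1 to Col5a2 all 3 Ad-GFP libraries lie above 0.457, the highest Ad-RNF128 value, and for Col8a1 to Col8a2 all 3 lie below 2.03, the lowest.

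Ad-GFP replicate 1 was not equally far from the other controls in all collagens. Of the 26 collagens tested without it, it lay below all 5 other libraries in 17, above all 5 in Col5a3 and Col6a2, within the Ad-RNF128 range in 4, between the groups in 2, and within the range of the other controls in 1. These places were not counted over all genes, so the counts do not set collagens apart from other genes. Col11a1 was 152 times, Col12a1 77.2 times, Col3a1 51.8 times and Col4a5 40.4 times as high in Ad-GFP replicates 2 and 3 as in replicate 1. Col4a2, at 1.03 times, and Col16a1, at 1.09 times, were nearly level between them. Ratios of replicate 1 to the mean of replicates 2 and 3 were next taken with 0.5 CPM added to both. That pulls low genes towards equality. The median absolute log2 ratio was then 3.56 over 10 fibrillar genes and 0.19 over 5 FACIT genes. The FACIT value is that of Col9a3, which was 1.41 times as high in replicate 1 without the added 0.5 CPM. Over the 25 collagens tested with all libraries the median was 1.25, against 2.04 over all genes. On this measure 40% of the collagens and 26.1% of all genes lay within 2-fold. Past 8-fold lay 36% of the collagens and 33.4% of all genes.

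**Figure D5:**
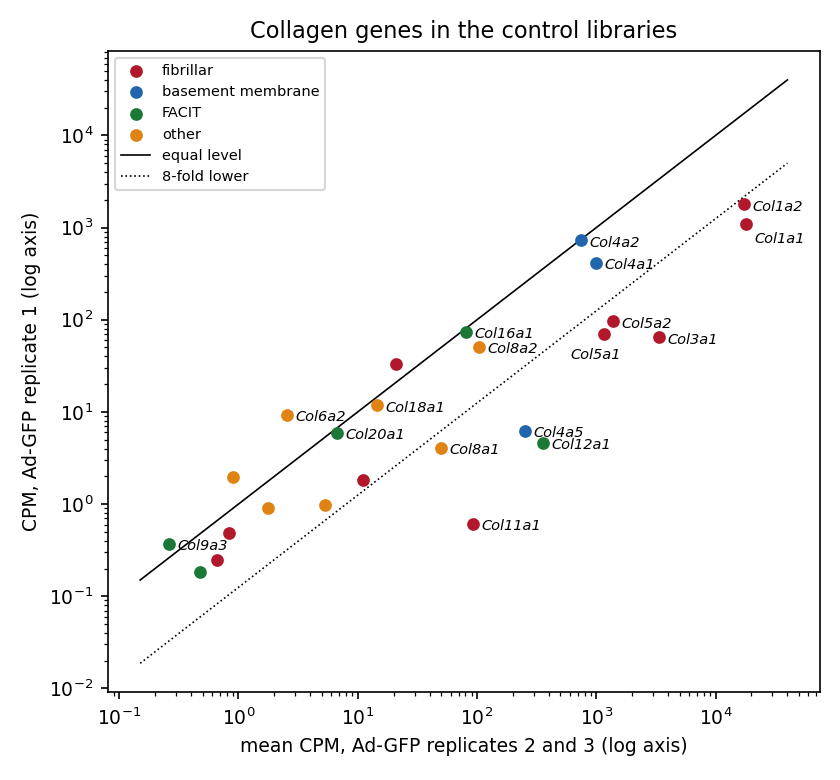
CPM of the tested collagen genes in Ad-GFP replicate 1 against the mean of Ad-GFP replicates 2 and 3 (both axes log), coloured by class, with lines of equal level and of 8-fold lower level; a gene without a read in replicate 1 is not drawn. Col4a2 and Col16a1 lie at the line of equal level, at 1.03 and 1.09 times, and Col11a1 lies farthest below, at 152 times.

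With Ad-GFP replicate 1 included, no collagen passed the test. Of the 25 tested, 0 rose and 0 fell, as was so for all 12863 genes (0% called by edgeR in either direction). At an unadjusted p under 0.05 edgeR listed 742 genes, 2.41% of all as lower and 3.36% as higher, and 2 collagens, both lower. These were Col8a2 (log2 change −1.95 ± 0.33, unadjusted p = 0.00102, adjusted p = 0.170) and Col4a2 (−1.31 ± 0.46, unadjusted p = 0.0297). DESeq2 on the same 6 libraries called 133 genes higher and 75 lower, with 1 collagen, Col8a2, among them. Libraries did not overlap in 3 collagens that were lower in Ad-RNF128 (Col4a2, Col5a3 and Col8a2; 3.59% of all genes) and in 4 that were higher (Col16a1, Col20a1, Col9a3 and Col8a1; 30.4% of all genes). The median log2 change was −0.61 over the collagens and −0.02 over all genes.

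The type I change kept its sign in that fit, at −1.89 ± 0.77 for Col1a1 and −1.41 ± 0.63 for Col1a2, with larger errors. For Col6a2 the sign turned: its log2 change was −0.41 ± 0.94 with all 6 libraries. Col16a1 (−0.20 ± 0.43) and Col20a1 (−0.11 ± 0.43) turned as well, although all 3 Ad-GFP libraries lay below all 3 Ad-RNF128 libraries in CPM. Their sign in this fit depended on the scaling, and with library totals it was positive.

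Genes that process collagen chains more often fell than rose. Without Ad-GFP replicate 1, 26 listed genes were tested, of which 19 fell and 3 rose, with a median log2 change of −0.40; of all genes 28.0% fell and 28.9% rose, with a median of 0.01. Serpinh1, the chaperone HSP47 that binds procollagen, measured 4704 and 4967 CPM in Ad-GFP replicates 2 and 3, 2355, 2451 and 2392 CPM in Ad-RNF128 and 3375 CPM in Ad-GFP replicate 1, so that all 3 controls lay above Ad-RNF128. It fell by 1.17 ± 0.06 on the log2 scale (edgeR adjusted p = 1.08e-09). Pcolce, which enhances removal of the C-terminal propeptide, fell by 0.29 ± 0.06 (edgeR adjusted p = 0.00134). P4hb, a subunit of prolyl 4-hydroxylase, did not pass (log2 change −0.13 ± 0.07). The 3 that rose, named after their values were seen, were P4ha1, a catalytic prolyl 4-hydroxylase subunit (0.44 ± 0.06), Loxl4, a lysyl oxidase (0.22 ± 0.06), and Tmem38b, an endoplasmic reticulum ion channel (0.60 ± 0.08).

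Receptors, degrading enzymes and the TGF-beta pathway held calls in both directions. Of 7 collagen receptors tested, 2 fell and 2 rose, with a median of −0.06, shares close to the 28.0% and 28.9% of all genes. Itgb1, the shared beta subunit of collagen-binding integrins, did not pass (log2 change −0.06 ± 0.06), Ddr2, a receptor kinase for fibrillar collagen, fell by 0.50 ± 0.06, and Mrc2, an endocytic collagen receptor, rose by 0.28 ± 0.09. Of 7 degradation genes and inhibitors tested, 4 fell and 1 rose, with a median of −0.58. Mmp14, a membrane-bound collagenase, fell by 0.61 ± 0.08, Timp3, an inhibitor of metalloproteinases, fell by 0.90 ± 0.10, and Timp1 did not pass (−0.06 ± 0.07). Of 15 genes of the TGF-beta pathway, which drives collagen transcription, 9 fell and 4 rose, with a median of −0.22. Ccn2 and Ccn1, matricellular targets of the pathway, fell by 0.37 ± 0.07 and 0.50 ± 0.06, and Tgfb3, a ligand, fell by 0.89 ± 0.06. Ad-GFP replicate 1 was the highest of all libraries in Pcolce (2306 CPM) and Timp1 (162 CPM). It was the lowest in P4hb (335 CPM), Itgb1 (71.2 CPM, against 1888 to 2136 CPM elsewhere), Ddr2 (14.7 CPM) and Mmp14 (110 CPM). It was also the lowest in Timp3 (5.32 CPM), Ccn2 (177 CPM), Ccn1 (193 CPM) and Tgfb3 (41.03 CPM). With all 6 libraries 0 genes of each of these 4 lists passed.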

How the data were processed

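Reads were counted per gene by the authors, who deposited 1 table of counts per library; the submitters' processing notes list HISAT2, HTSeq 0.13.5 and build mRatBN7.2. The strand setting was not given in the sources used here, and reads of antisense or overlapping genes may be mixed. The authors deposited Ad-GFP replicate 1 with 1 value that is not whole, so its values were treated as an expected count each and rounded. CPM is a count times 1000000 over the library total. Tests used edgeR 4.0.16 in R 4.3.3 (filterByExpr, TMM scaling, quasi-likelihood F-test, Benjamini-Hochberg threshold 0.05), fitted on all genes in 2 versions, with all 6 libraries and without Ad-GFP replicate 1. An SE was derived from the log2 change and its F statistic. Alternatives were other scalings and filters, DESeq2 1.42.0, limma-voom (limma 3.58.1), a replicate block and leaving out each library. Scripts were tested on simulated data. Values after ± are SDs over libraries where SD is written and SEs of log2 changes otherwise.

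The members and lists were chosen with earlier results of these data known. Full values were given for the 4 tested genes per class with the highest mean CPM, for further genes past the threshold with a change of at least 2-fold and a mean CPM of at least 1, and for the 3 highest tested genes of each pathway list. Other collagens were named for completeness.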

Additional observations from a re-analysis of the deposited data

How the results depend on the processing

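Without Ad-GFP replicate 1, 14 of the 19 collagen calls were kept in all 13 alternatives, 5 (Col15a1, Col18a1, Col9a3, Col5a3 and Col16a1) were lost in at least 1, and 0 were opposite. With library totals 5354 genes were higher and 2411 lower, so that 69% of calls were higher in place of 50.8%, the median of all genes moved from 0.01 to 0.17, and 5 collagens were higher and 12 lower. Leaving out the gene of each class that differed most in share, chosen after seeing the data, moved the class ratios of shares to 2.91 (fibrillar) and 1.64 (type IV) and reversed them to 0.745 (FACIT) and 0.749 (other types). The median of the other types, −0.40, became 0.39 in DESeq2 and 0.39 with no low-count filter. Both of these fits keep every gene with a read, so their medians also take in genes of other types left untested above. The median ran from −0.48 to 0.065 when 1 library was left out.

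With all 6 libraries edgeR called 0 genes. DESeq2 called 133 higher and 75 lower, with 1 collagen, limma-voom 14 higher and library totals 8 higher. Leaving out 1 library at a time gave 0 to 3812 genes higher and 0 to 3689 lower, and 0 to 4 collagens higher and 0 to 15 lower; only leaving out Ad-GFP replicate 1 gave the upper values. Log2 changes turned positive with library totals for Col16a1 (0.46), Col20a1 (0.54) and Col6a2 (0.62), and in limma-voom for Col4a5 (0.033), Col5a2 (0.072) and Col6a2 (0.30). With 1 library left out they ran from −0.38 to 0.27 for Col16a1, −0.29 to 0.31 for Col20a1 and −0.87 to 1.39 for Col6a2, positive without Ad-GFP replicate 1, and from −0.77 to 0.029 for Col5a2, positive without Ad-GFP replicate 2 or 3. The causes were not tested.

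The deviations of same-numbered libraries had correlations of −0.178, 0.013 and −0.136. Ad-GFP replicates 2 and 3 correlated alike with each Ad-RNF128 library, so this check could not show a pairing of those numbers, and no label gives one. With the replicate block the changes of Col4a5 (0.070), Col5a2 (0.051) and Col6a2 (0.40) turned positive with all 6 libraries; without Ad-GFP replicate 1 the block called 3931 genes higher and 3867 lower, with 4 and 15 collagens.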
